A study of Homo sapiens with 26 samples.

Results

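The zinc finger genes of human chromosome 19 are the subject here. They were taken as the protein-coding genes on GRCh37 chromosome 19 whose symbol is ZNF followed by digits and any letter suffix, which gave 246 of the 19785 protein-coding genes of the annotation. Active promoters carry histone H3 acetylated at lysine 27 (H3K27ac), while H3 monomethylated at lysine 4 (H3K4me1) lies on enhancers and on the flanks of active promoters. Both marks were profiled by ChIP-seq in HCT116 cells, a line from a colorectal tumour that keeps functional p53. In the parental cells (WT) each mark was measured after the vehicle DMSO (0 h) and after Nutlin-3a for 1 h or 10 h, a compound that blocks the inhibition of p53 by HDM2. In the derivative labelled HCT116_RAD21 (the RAD21 line), whose cohesin subunit RAD21 carries a degradation tag, H3K27ac was measured after DMSO and after 1 h of Nutlin-3a. The study degraded RAD21 in this line with an auxin analogue and reports H3K27ac ChIP-seq of the treated cells. The sample labels do not state that treatment, but the peak names of these lists carry the letters KD. Line and RAD21 degradation cannot be told apart in contrasts between the lines. Whether the line is 1 clone is not given in the sources used here. Each of the 8 groups had 2 libraries with a peak list each, hence 10 H3K27ac lists and 6 H3K4me1 lists. No label ties the 2 libraries of a group to separate cultures beyond calling them replicates, so p-values measure the spread between these libraries.

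The ZNF genes of chromosome 19 encode C2H2 zinc finger proteins, in which a run of fingers reads DNA. Most of them arose by tandem duplication within clusters and also carry a KRAB domain. That domain recruits the corepressor TRIM28 (KAP1), which brings in the histone methyltransferase SETDB1 and heterochromatin protein 1, and many KRAB zinc finger proteins silence transposable elements in this way. In several tumour types, promoters of genes of this group are known to be methylated at CpG sites.

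The lists held 31640 to 49127 H3K27ac peaks and 84492 to 92943 H3K4me1 peaks. They carry no read counts, so the depth behind each value is unknown and no counting interval could be set. Peak names in the lists of WT at 0 h and of WT 1 h replicate 1 for H3K27ac lack the word input, which the names in the other 13 lists carry. Whether those 3 lists were called with another control is not given in the sources used here, and another control would change what their p-values and ranks mean. The difference in names is given below beside the results it touches. Promoters of the epithelial genes EPCAM, CDH1, KRT8 and KRT18 had H3K27ac in all 10 lists, and those of the leukocyte gene PTPRC, the fibroblast gene COL1A2 and the astrocyte gene GFAP in 0.

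The promoters of 5 members are printed to show how far marked and unmarked ones can be alike or differ. Each run is the 200 bases just upstream of the gene's outermost 5′ start on GRCh37, read 5′ to 3′ along the gene. Capitals mark CCGGAAG or its reverse complement CTTCCGG, the core of binding sites of ETS family transcription factors.
ZNF91: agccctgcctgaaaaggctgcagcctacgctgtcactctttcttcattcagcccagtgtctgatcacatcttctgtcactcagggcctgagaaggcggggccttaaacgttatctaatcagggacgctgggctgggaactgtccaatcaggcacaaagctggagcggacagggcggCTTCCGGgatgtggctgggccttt
ZNF208: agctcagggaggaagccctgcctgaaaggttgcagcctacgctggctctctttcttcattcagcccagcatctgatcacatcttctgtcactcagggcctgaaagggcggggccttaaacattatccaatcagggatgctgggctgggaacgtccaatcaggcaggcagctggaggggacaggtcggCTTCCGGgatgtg
ZNF20: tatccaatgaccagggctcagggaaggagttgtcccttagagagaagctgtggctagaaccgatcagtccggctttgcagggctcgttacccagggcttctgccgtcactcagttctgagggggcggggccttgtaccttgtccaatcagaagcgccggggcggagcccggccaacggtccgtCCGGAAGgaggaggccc
ZNF671: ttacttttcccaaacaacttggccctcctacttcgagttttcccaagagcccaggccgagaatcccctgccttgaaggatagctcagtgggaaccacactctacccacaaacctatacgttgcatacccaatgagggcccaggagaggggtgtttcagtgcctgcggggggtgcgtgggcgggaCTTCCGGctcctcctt
ZNF274: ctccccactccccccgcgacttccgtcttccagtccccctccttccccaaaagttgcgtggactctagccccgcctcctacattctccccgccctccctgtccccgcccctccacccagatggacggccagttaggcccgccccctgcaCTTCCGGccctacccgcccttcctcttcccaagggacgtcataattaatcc
The positions are chr19:23578274-23578473 on the minus strand for ZNF91, chr19:22193752-22193951 on the minus strand for ZNF208, chr19:12251171-12251370 on the minus strand for ZNF20, chr19:58238993-58239192 on the minus strand for ZNF671 and chr19:58694196-58694395 on the plus strand for ZNF274. ZNF91 and ZNF208 lie in the same cluster. Their upstream runs shared an unbroken stretch of 32 bases, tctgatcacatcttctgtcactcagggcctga, and held 7 and 5 CpG sites. Yet ZNF91, known for silencing SVA retrotransposons, had promoter H3K27ac in all 10 lists, whereas ZNF208 had it in 0. ZNF274, which directs SETDB1 to the 3′ ends of other zinc finger genes, had H3K27ac in 10 lists, and its cluster neighbour ZNF671 in 0. The longest run shared by ZNF274 and ZNF671 was only 9 bases, and that shared by ZNF91 and ZNF20 was 11. The promoter of ZNF20 had H3K27ac in the 4 lists of the RAD21 line and in none of the 6 WT lists.

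A promoter was the window from 1000 bp upstream to 200 bp downstream of each start site, and a peak touching it by 1 bp or more made it marked. At 0 h in WT, 58.5% ± 0.57 (SD, n = 2 lists) of the 246 promoters had H3K27ac. The share was 58.1% ± 1.15 at 1 h and 57.5% ± 0.29 at 10 h. In the RAD21 line it was 60.6% in each of the 4 lists, or 149 promoters, against 141 to 145 in the 6 WT lists. The lists of the lines did not overlap in this count, and the same held for ZNF genes of other chromosomes (212 to 213 against 206 to 211). Over all protein-coding genes the lists of the lines did overlap (12217 to 12425 against 12066 to 12365). With 2 lists a group, an exact two-sided permutation test cannot give a p-value under 1/3, so no such test was run. Over all protein-coding genes 61.0% to 62.8% of promoters had H3K27ac, and over the 263 ZNF genes of other chromosomes 78.3% to 81.0%.

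H3K4me1 separated the members further from other genes. Its share was 52.2% ± 0.86 before Nutlin-3a, 52.2% ± 0.86 after 1 h and 52.0% ± 0.57 after 10 h (SD, n = 2 lists each). In the same lists it was 66.4% to 68.8% of all protein-coding promoters, 70.9% to 74.3% for the other 1187 protein-coding genes of chromosome 19 and 77.6% to 80.2% for ZNF genes elsewhere. The 6 shares of the members, 51.6% to 52.8%, were below each of these.

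**Figure D1:**
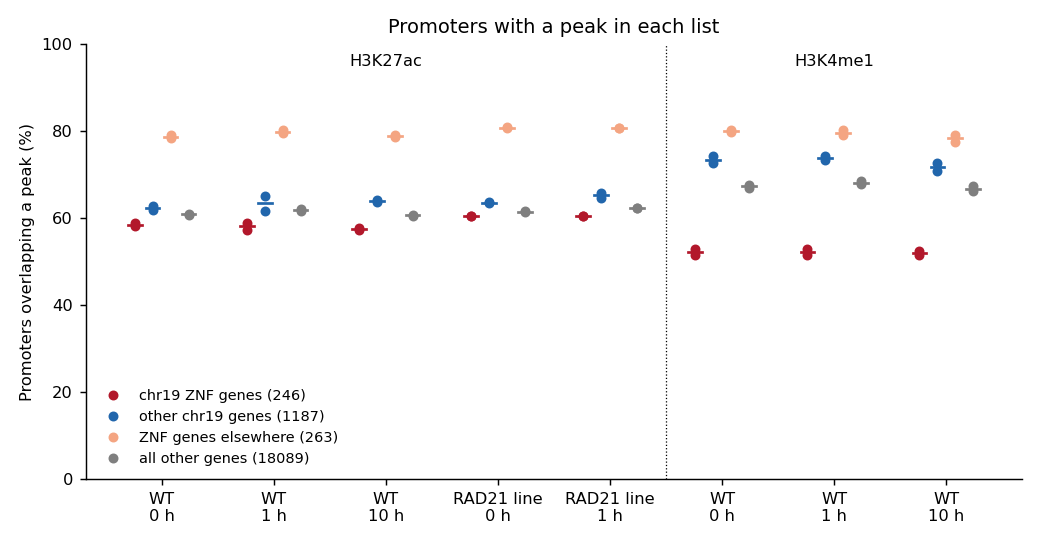
Share of promoters overlapping a peak (y axis, percent) in each list, by line, hours of Nutlin-3a and mark (x axis). Each point is 1 list, short lines are group means of 2 lists, and colours are gene sets with their numbers in brackets. Chromosome 19 ZNF genes lie at 57.3% to 60.6% for H3K27ac and at 51.6% to 52.8% for H3K4me1, the lowest set in each H3K4me1 list.

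The H3K27ac state of a member was largely fixed. Of the 246 promoters, 138 (56.1%) had H3K27ac in all 10 lists, 96 (39.0%) in none and 12 (4.88%) in some. Over all protein-coding genes the shares were 58.1%, 34.4% and 7.42%. H3K4me1 was present in all 6 lists at 117 member promoters (47.6%) and in none at 106 (43.1%), against 63.9% and 28.5% of all genes. Of the 96 without H3K27ac, 95 also lacked H3K4me1 in every list, or 99.0% of them, while 78.3% of the unmarked promoters of all genes did so. The exception was ZNF536, a gene of neural tissue, with H3K4me1 in all 6 lists. At 0 h in WT only 1 member (0.407%) had H3K4me1 in both lists and H3K27ac in neither, against 7.63% of all genes.

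The reverse pairing was also found. ZNF136, ZNF493, ZNF91, ZNF675 and ZNF776 had H3K27ac in all 10 lists and H3K4me1 in none of 6. These 5 are 3.62% of the 138 members with lasting H3K27ac, and the same pattern held for 1.48% of the 11504 such promoters of all genes. H3K4me1 in all 6 lists accompanied lasting H3K27ac at 83.3% of the members and at 92.5% of all genes.

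Chromosome order showed blocks of marked and unmarked genes. Members whose neighbouring starts lay within 500 kb were joined, and 10 clusters had at least 5 members. The cluster at chr19:19779605-24312770, next to the centromere, held 37 members, of which 13 (35.1%) had H3K27ac in all 10 lists and 23 (62.2%) in none. Its unmarked members included ZNF93, which silences L1 retrotransposons, ZNF43 and ZNF208. The cluster at chr19:36673178-38307940 was alike, with 10 of 26 always marked and 14 never. Its members ZNF382 and ZNF568 were among the unmarked. ZNF568 is the orthologue of a mouse gene that silences a placental Igf2 transcript.

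Other clusters were marked more often. The most distal one, chr19:57702868-58992597, had 28 of its 43 members (65.1%) in all 10 lists and 12 in none. Among those 12 were ZNF154 and ZNF671, whose promoter methylation is used as a tumour marker. At chr19:52074536-54083523 there were 22 of 39 members always marked and 16 never, the latter including ZNF331, and at chr19:44029649-45004576 there were 14 of 23 and 7. At chr19:11594242-12750912, 13 of 25 were always and 11 never marked. In the small cluster chr19:35168544-35455133 all 5 members had H3K27ac in some list, 4 of them in all 10. The remaining clusters were chr19:2819866-2944969 with 4 of 5 always marked, chr19:8574562-9903856 with 9 of 13, and chr19:55987984-57183151 with 9 of 16. In chromosome order the first 10 members without H3K27ac were ZNF556, ZNF177, ZNF560, ZNF846, ZNF491, ZNF439, ZNF69, ZNF763, ZNF433 and ZNF878.

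**Figure D2:**
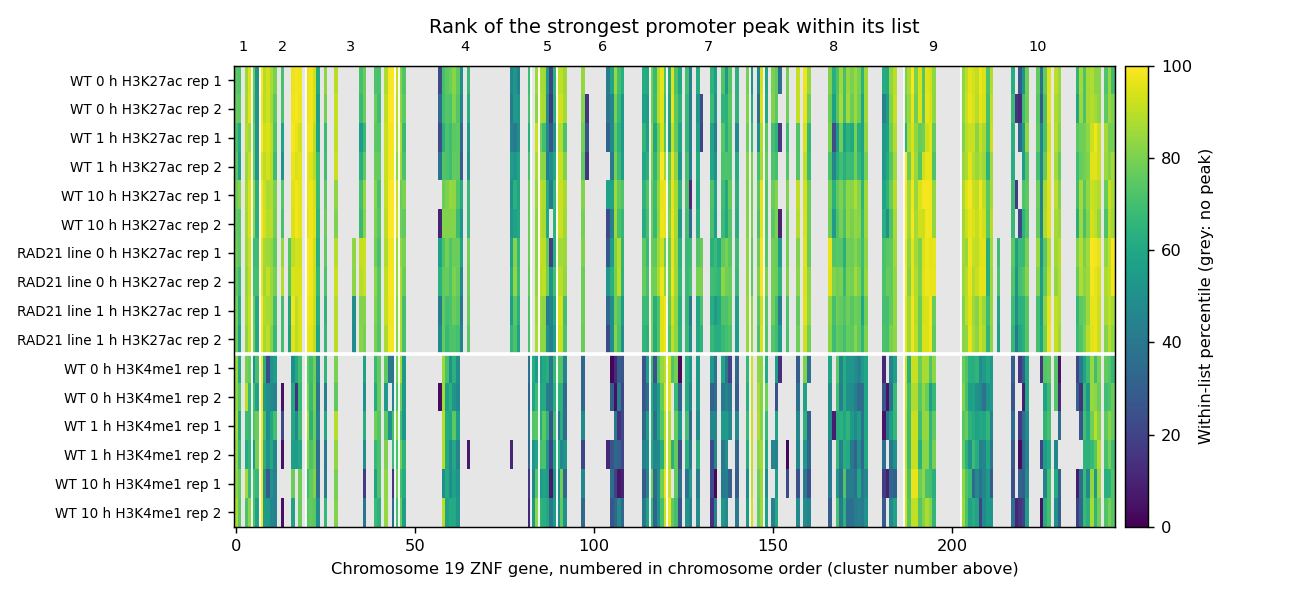
Each column is 1 of the 246 genes in chromosome order with the cluster number above, and each row is 1 list. Colour gives the within-list percentile of the strongest peak at the promoter, from 0 to 100, and grey means no peak. Grey runs continue through the 10 H3K27ac and the 6 H3K4me1 lists, most densely in cluster 4 (23 of 37 members without H3K27ac).

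Where a promoter peak was present, its rank was described by its percentile by −log10 p among all peaks of its own list. The highest mean percentiles over the 10 H3K27ac lists belonged to ZNF490 and ZNF791, whose windows share 1 peak, at 98.2 to 99.8 (median 98.7), and to ZNF414 at 94.9 to 99.5 (median 98.9). They were followed by ZNF627 at 95.6 to 98.7 and ZNF653 at 96.0 to 99.8. By mean width over the 10 lists, the widest promoter peaks were those of ZNF628, with a median of 7014.5 bp, ZNF580, ZNF581, ZNF526 and ZNF576. Such members were untypical. Median width over the marked members was 994 to 1532 bp in the H3K27ac lists, against 1323 to 2401 bp for all marked promoters. It was 994 to 1036 bp in the 3 lists whose peak names lack the word input, which cover 30.7 to 31.9 Mb in all, and 1380 to 1532 bp in the other 7, which cover 49.1 to 66.6 Mb. In each list that median fell at the 54.8th to 71.1st percentile of all peak widths, against the 74.1st to 82.5th for all marked promoters.

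The median percentile by −log10 p of marked members was 78.5 ± 1.60 at 0 h, 75.2 ± 0.89 at 1 h and 81.1 ± 0.39 at 10 h in WT, and 80.5 ± 0.67 and 76.9 ± 0.41 at 0 h and 1 h in the RAD21 line (SD, n = 2 lists each). Over all marked promoters it was 81.5 ± 0.43, 82.7 ± 2.69, 86.8 ± 0.52, 85.1 ± 0.53 and 85.01 ± 0.082. The lists differ in length, so these percentiles do not measure change between lists. For H3K4me1 the member median was 59.5 ± 2.93, 61.7 ± 2.14 and 54.6 ± 3.94 at the 3 time points, against 74.3 ± 1.53, 75.0 ± 1.42 and 73.3 ± 1.51 for all. ZNF224, a partner of the WT1 protein, had 58.6 to 72.2 in the H3K27ac lists and 14.8 to 53.8 in the H3K4me1 lists, with its highest H3K27ac value below the lowest median of the marked members (74.6). ZNF175 reached 58.7 to 79.7 and 50.0 to 78.0.

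The marks lay close to the start, and H3K4me1 was sparse in the gene bodies. At 10 to 15 kb downstream of the 5′ end, H3K4me1 covered 1.65% of members on average over the 6 lists and 6.48% of ZNF genes elsewhere. It covered 23.97% of the other chromosome 19 genes and 13.8% of all other genes. Positions past a gene's end are included, and the other chromosome 19 genes had a median length of 13654 bp. Over whole gene bodies (median gene length 25819 bp), H3K4me1 peaks covered 3.22% ± 0.22 of the members' sequence in untreated WT, 3.50% ± 0.15 after 1 h and 2.97% ± 0.35 after 10 h (SD, n = 2 lists each). The other genes of chromosome 19 had 19.4% to 24.2% and all protein-coding genes 7.68% to 9.81%. H3K27ac covered 1.11% to 2.34% of member bodies, against 1.20% to 3.38% for all protein-coding genes, 1.40% to 3.01% for ZNF genes elsewhere and 3.42% to 13.8% for the other genes of chromosome 19. In the 3 lists whose names lack the word input, members had 1.11% to 1.13% and all genes 1.20% to 1.23%, and in the other 7 lists members had 1.88% to 2.34% and all genes 2.23% to 3.38%. The authors removed low-quality reads, and the part that reads shared between near-identical copies play in these low values was not tested.

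**Figure D3:**
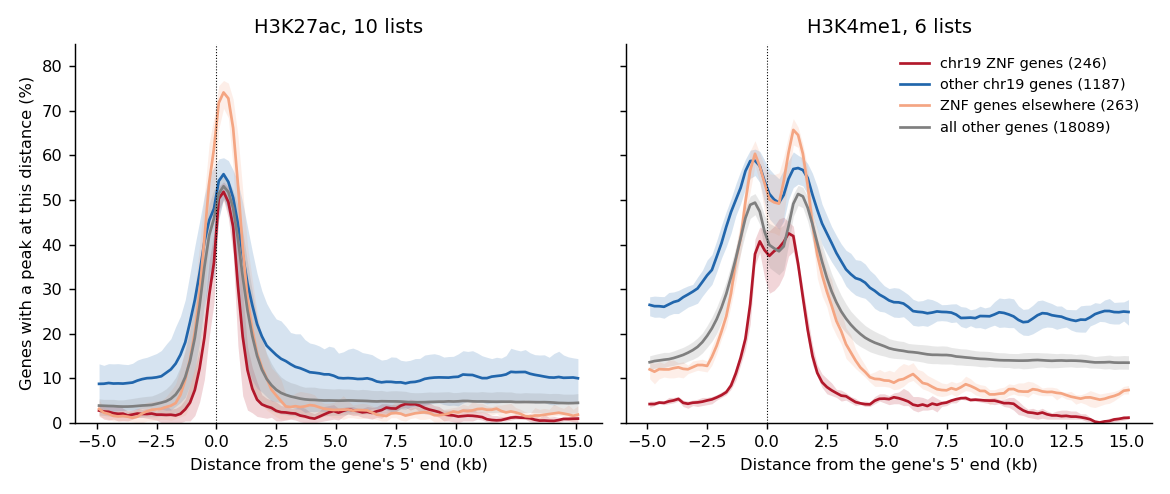
Share of genes with a peak at each distance (y axis, percent, in 200 bp bins) from the gene's 5′ end (x axis, kb), for H3K27ac and H3K4me1. Lines are means over the lists, bands run from the lowest to the highest list, and positions past a gene's end are included. Chromosome 19 ZNF genes reach 51.8% for H3K27ac just downstream of the start. Beyond 10 kb they stay at 1.65% for H3K4me1, where other chromosome 19 genes stay at 23.97% and all other genes at 13.8%.

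Sequence features were read in the 300 bases from 250 upstream to 50 downstream of the outermost start. Peaks were counted at any start of a gene, so this window need not lie at the start that was marked. Members had a median of 3 starts and all protein-coding genes 2. The observed to expected CpG ratio of members had a median of 0.744 at the 138 promoters with lasting H3K27ac and 0.673 at the 96 without. Among all protein-coding genes the medians were 0.816 and 0.323. Thus 62.5% of the unmarked members had a ratio over 0.6, compared with 28.2% of the unmarked promoters of all genes and 19.8% of those of the other chromosome 19 genes. By cluster, the median ratio was lowest, 0.457, in the 37-member cluster next to the centromere.

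The ETS core CCGGAAG, searched on both strands, was in 101 of 246 member promoters (41.1%). It was in 25.5% of those of ZNF genes elsewhere, 12.5% for the other chromosome 19 genes and 11.7% of all 19785. Of the 101, 89 had it within 50 bases of the start, with a median position of 6 bases before it. Presence of the motif in this window at the outermost start did not go with H3K27ac among members. The motif was in 38.4% of the always marked and 42.7% of the never marked, whereas over all genes the shares were 17.7% and 3.45%. It was in 23 of 37 members of the cluster at chr19:19779605-24312770, 23 of 39 at chr19:52074536-54083523, 25 of 43 at chr19:57702868-58992597 and 3 of 5 at chr19:35168544-35455133, but in 3 of 25 at chr19:11594242-12750912. Members of a cluster share ancestry, so they are not independent observations. The Sp1 motif GGGGCGGGG was found in 22.8% of member promoters and 20.0% of all, the NRF1 motif GCGCATGC in 4.47% and 3.75%, the YY1 motif AAGATGGCG in 2.44% and 1.86%, and the CRE motif TGACGTCA in 2.85% and 2.305%, with both strands searched. No searched motif contains another, although neighbouring matches may share bases. A full p53 response element, searched by name as a pair of decamers at most 1 base apart, matched in 0 member windows and in 1 of all 19785.

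**Figure D4:**
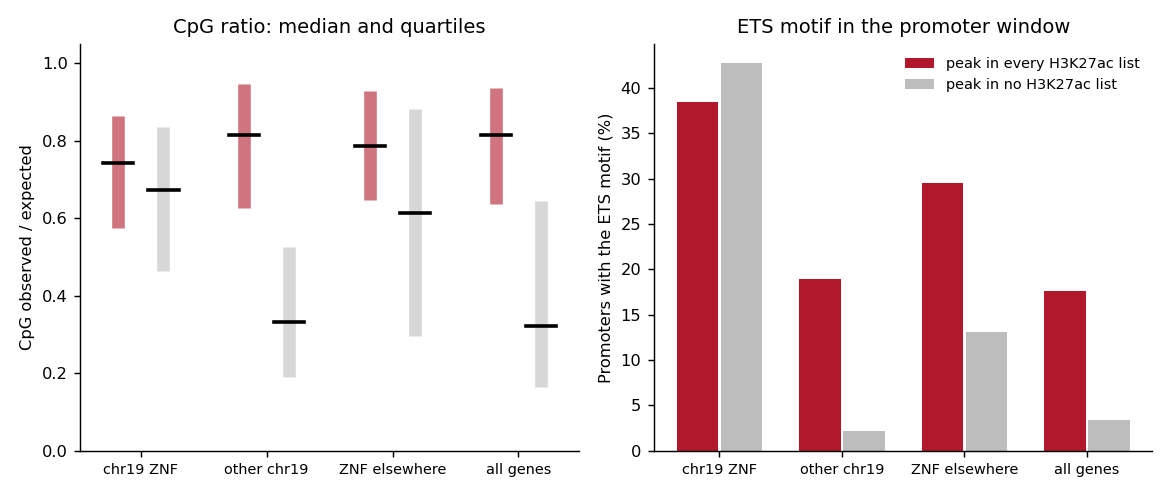
Left, observed to expected CpG ratio of promoter windows, with medians (black lines) and quartiles (bars), for promoters in every H3K27ac list (red) and in none (grey). Right, percent of windows with CCGGAAG on either strand. Unmarked chromosome 19 ZNF promoters have a median ratio of 0.673 and 42.7% with the motif, against 0.323 and 3.45% for unmarked promoters of all genes.

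By the rule given next, no member gained or lost promoter H3K27ac after Nutlin-3a. A promoter was gained when both lists of the later time point marked it and neither list at 0 h did, and lost in the opposite case. At 1 h in WT, 0 of 246 members were gained and 0 lost, where 0.607% and 0.227% of all protein-coding promoters were. At 10 h the counts were again 0 and 0, beside 0.819% and 0.612% of all. In the RAD21 line after 1 h they were 0 and 0, beside 0.708% and 0.232%. Such shares of all promoters are small, so counts of 0 among 246 do not set the members apart. In WT, ZNF85, ZNF30, ZNF585A and ZNF134 were marked in both lists at 0 h and missing from a later list. This pattern was not counted over all promoters, so it is not read as a loss particular to members. Marking in only some of the 10 H3K27ac lists was found at 4.88% of members and 7.42% of all genes. For H3K4me1, no member was gained at 1 h or 10 h (0.601% and 0.197% of all). ZNF329 was lost at 1 h (0.263% of all were), and ZNF561 at 10 h (0.394% of all). At 0 h ZNF329 was at the 21.0th and 32.1st percentile and ZNF561 at the 60.4th and 14.7th. The joined region over the ZNF561 promoter, which reaches beyond the promoter window, was called in all 6 H3K4me1 lists and scored −0.138 and 0.560 at 0 h and 0.407 and 0.618 at 10 h in the rank fit described below.

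The lines differed at a small number of members. At 0 h, 4 members (1.63%) were marked in both lists of the RAD21 line and in neither WT list, beside 1.06% of all promoters, and 0 in the opposite direction, beside 0.536%. At 1 h, 5 members (2.03%) were marked only in the RAD21 line, beside 0.455% of all, and ZNF850 only in WT, beside 0.243%. ZNF850 was at the 26.9th and 15.4th percentile of the WT 1 h lists. The 4 members at 0 h, ZNF426, ZNF20, ZNF234 and ZNF419, were also among the 5 at 1 h, where the fifth was ZNF530.

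These 4 genes had a peak in all 4 lists of the RAD21 line and in none of the 6 WT lists. Only 14 of all 19785 promoters (0.0708%) had this pattern, and besides the 4 members another 2 were ZNF genes of other chromosomes. The opposite pattern was found at 10 promoters (0.0505%), of which 0 were members. ZNF20 was at the 83.2nd and 82.5th percentile of the RAD21 line lists at 0 h and at the 50.0th and 48.5th at 1 h. ZNF426 was at 73.5 and 73.3, then at 58.6 and 57.1. ZNF419 was at 68.8 and 71.3, then at 58.6 and 57.0, and ZNF234 at 61.1 and 65.9, then at 60.6 and 62.3. In the same lists the median of all marked members was 80.5 ± 0.67 at 0 h and 76.9 ± 0.41 at 1 h (SD, n = 2 lists each). The lists differ in length, so no change over time is read from these percentiles. The peak names of the lists of WT 1 h replicate 2 and WT 10 h carry the same word as those of the RAD21 line, and these 3 WT lists also lacked all 4 peaks. None of the 4 promoters had H3K4me1 in WT. Of the other members marked in part, ZNF350, whose product binds BRCA1, had H3K27ac in 3 WT lists and in all 4 lists of the RAD21 line, at the 42.7th to 65.4th percentile in the latter and at the 9.95th to 37.5th in the former.

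Changes in rank were fitted with limma on normal scores. Each region called in every list of a mark was given a score from its within-list rank by −log10 p, on a scale where 1 is 1 SD of the ranks. Of the 18757 H3K27ac regions, 136 covered promoters of 138 members. Of these, 19 also covered another gene's promoter. The test therefore concerns only members marked throughout. After 1 h of Nutlin-3a in WT, 45 of the 136 regions ranked lower and 6 higher at a Benjamini-Hochberg adjusted p under 0.05, that is 33.1% and 4.41%. Of all regions tested, 14.8% ranked lower and 14.3% higher. The median change was −0.283 for members, with 104 of 136 negative, and 0.0025 for the 10609 regions at promoters of any gene. It was 0.040 for regions at other chromosome 19 promoters and −0.112 for ZNF genes elsewhere, of which 19.7% ranked lower.

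The same direction was found in the RAD21 line. After 1 h, 32 member regions (23.5%) ranked lower and 9 (6.62%) higher, beside 13.4% and 14.4% of all regions. The median change was −0.141 for members, 0.072 for all promoters and 0.132 for other chromosome 19 promoters. For ZNF genes elsewhere it was 0.019, with 14.4% ranked lower and 10.1% higher. This contrast shares no list with the WT contrast. Of the 45 regions lower in WT and the 32 lower in the RAD21 line, 19 were common to both, or 42.2% and 59.4% of each. They included ZNF91, ZNF136, ZNF274, ZNF444, ZNF566 and ZNF780A. The overlap was not counted over all regions, so it does not set the members apart. Only ZNF296 was higher in both, out of 6 and 9.

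After 10 h in WT, 40 member regions (29.4%) ranked lower and 1, ZNF296, higher, beside 8.56% and 9.70% of all regions. The median change was −0.319, with 115 of 136 negative, and −0.082 over all promoters. For ZNF genes elsewhere it was −0.184, with 17.8% ranked lower and 3.37% higher. Of all promoter regions, 10.4% ranked lower and 5.42% higher. All lists at 0 h have peak names without the word input and both lists at 10 h have names with it. With the name form as a term, which only the 2 WT lists at 1 h can set, 2 members ranked lower and 1 higher. That is 1.47% and 0.735%, beside 2.34% and 2.06% of all regions, and the median member change was −0.033. Time and name form cannot be told apart in this contrast. Within WT at 1 h, where the forms meet, replicate 2 scored below replicate 1 at 112 of the 136 member regions (median −0.275).

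Lists of a single name form were also compared, without a test. WT 1 h replicate 1 was below the mean of the WT 0 h lists, which share its form, at 87 of 136 member regions (median −0.129), beside 47.6% of all promoter regions (median 0.028). That comparison rests on replicate 1 alone at 1 h. The mean of the WT 10 h lists was below WT 1 h replicate 2, of the same form, at 52 of 136 member regions (median 0.119). Of all promoter regions 53.3% were below it (median −0.038). All lists of the RAD21 line have 1 form, and there 97 of 136 member regions were lower at 1 h, beside 42.4% of all promoter regions. Those lists still differed between times, covering 49.1 and 53.2 Mb at 0 h and 62.6 and 64.1 Mb at 1 h. Their median peak widths were 788 and 785 bp, then 1110 and 1169 bp. The 3 WT lists of the other form covered 30.7 to 31.9 Mb. The part that peak breadth plays in these ranks was not tested. Median scores of the members in the single lists in WT were 0.379 and 0.334 without Nutlin-3a, 0.223 and −0.049 after 1 h, and 0.047 and 0.065 after 10 h. In the RAD21 line the values 0.232 and 0.224 without Nutlin-3a became 0.075 and 0.109 after 1 h. The medians of all promoter regions stayed between 0.378 and 0.474 in the 10 lists.

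**Figure D5:**
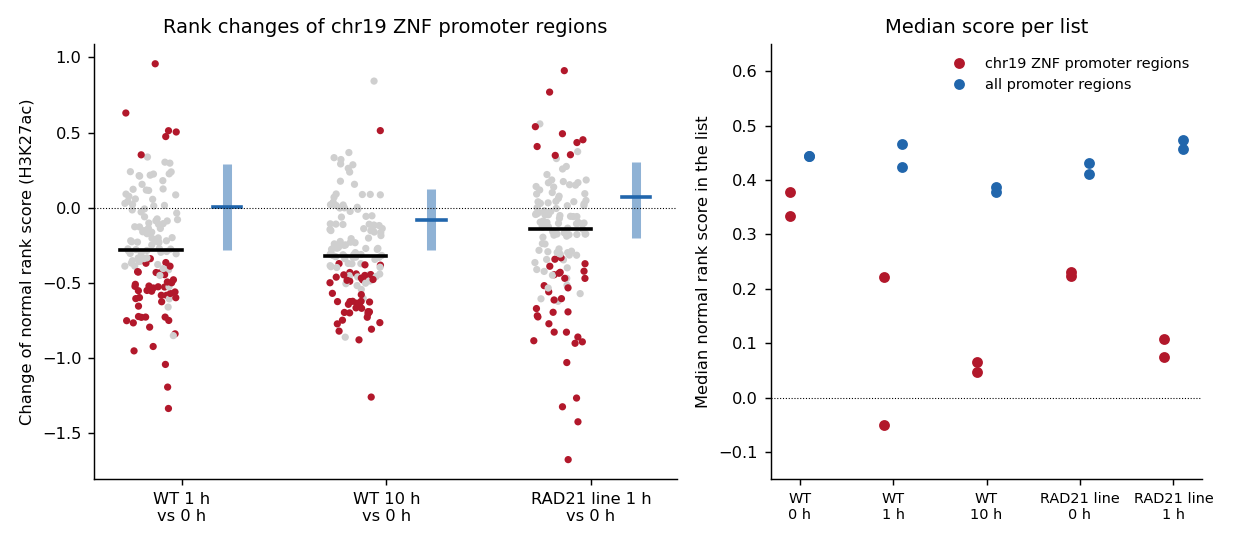
Left, change of the normal rank score of H3K27ac for the 136 regions at promoters of chromosome 19 ZNF genes in 3 contrasts. Points are regions, red ones have an adjusted p under 0.05 (limma), black lines are medians, and blue marks are the median and quartiles of all 10609 promoter regions. Right, median score in each list for both sets. Member medians lie at −0.283, −0.319 and −0.141 in the left panel, and on the right they are highest in the 2 WT lists at 0 h.

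The size of the WT result depended on single lists. Without WT 1 h replicate 1, 79 member regions ranked lower at 1 h, and without WT 1 h replicate 2, 37. Without WT 0 h replicate 1 or replicate 2 there were 17 and 20. In the RAD21 line, 16 and 19 remained lower without the 0 h replicates 1 and 2, and 17 without either 1 h replicate. In each of these fits the share of members ranked lower exceeded that of all regions, for example 12.5% against 6.33% in the fit with 17 in WT. When regions were ranked by fold instead of −log10 p, 0 of all regions passed at 1 h in either line. An unadjusted p under 0.05 in limma was found at 36 member regions (26.5%) in WT, beside 19.8% of all regions, and at 15 (11.0%) in the RAD21 line, beside 14.2%. The median member change was then −0.426 in WT and −0.142 in the RAD21 line.

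Single promoters show the pattern, with adjusted p-values from limma. ZNF784 scored 1.24 and 1.27 at 0 h and 0.282 and −0.156 at 1 h in WT, a change of −1.20 ± 0.137 (SE, adjusted p = 0.000154). At 10 h it scored 1.06 and 0.92. ZNF616 went from 1.01 and 1.03 to 0.134 and −0.181, a change of −1.04 ± 0.125 (adjusted p = 0.000181), and ZNF28 from 0.598 and 0.720 to −0.178 and −0.411, a change of −0.954 ± 0.120 (adjusted p = 0.000237). These 3 were named for the smallest p-values among lower regions of this contrast. Their scores at 1 h all lay below those at 0 h, which such a choice favours, so this adds no support. ZNF274 scored 0.70 and 0.66 at 0 h and 0.346 and −0.00648 at 1 h in WT, and 0.725 and 0.622 and then −0.0531 and −0.147 in the RAD21 line. The changes were −0.511 ± 0.128 (adjusted p = 0.0101) and −0.774 ± 0.128 (adjusted p = 0.000798). ZNF91 fell by 0.522 in WT (adjusted p = 0.0227) and by 0.447 in the RAD21 line (adjusted p = 0.0453).

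Against this direction, ZNF837 rose from 0.489 and 0.744 to 1.81 and 1.34 at 1 h in WT (change 0.958 ± 0.174, adjusted p = 0.00177), ZNF296 by 0.630 ± 0.153 (adjusted p = 0.00857) and ZNF175 by 0.512 ± 0.134 (adjusted p = 0.0127). At 10 h in WT the smallest p-values among lower regions were those of ZNF700, at −0.823 ± 0.117, ZNF780A, at −0.629 ± 0.111, and ZNF649, at −0.671 ± 0.128. ZNF700 had held its score at 1 h (0.994 and 0.945, after 0.870 and 1.04 at 0 h) and was at 0.19 and 0.08 at 10 h.

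In the RAD21 line, ZNF444 scored 1.41 and 1.45 at 0 h and 0.02 and −0.02 at 1 h, a change of −1.43 ± 0.140 (limma, adjusted p = 2.61e-05). ZNF446 went from 1.85 and 1.74 to 0.55 and 0.39, a change of −1.33 ± 0.150, and ZNF875 from 0.75 and 0.74 to −0.13 and −0.16, a change of −0.887 ± 0.129. The regions that rose most clearly were at ZNF526, by 0.912 ± 0.128, which also covers the promoter of DEDD2, at ZNF587B, by 0.769 ± 0.118, which also covers an unnamed gene, and at ZNF557, by 0.452 ± 0.125, which also covers MBD3L3.

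Between the lines at 0 h, 21 member regions (15.4%) ranked higher in the RAD21 line and 28 (20.6%) lower, beside 16.8% and 20.7% of all regions. The WT lists and the RAD21 line lists at 0 h differ in the form of their peak names. With that form as a term, 30 (22.1%) ranked higher and 8 (5.88%) lower, beside 11.8% and 13.2% of all regions, and the median change turned from −0.152 to 0.129. Line and name form cannot be told apart in this contrast. ZNF446 was higher by 1.63 ± 0.150 (limma, adjusted p = 5.12e-06), ZNF497 by 1.13 ± 0.125 and ZNF91 by 1.01 ± 0.154. ZNF91 scored −0.749 and −0.649 in WT and 0.29 and 0.34 in the RAD21 line. ZNF784, ZNF616 and ZNF561 were lower by the smallest p-values, at −1.08 ± 0.137, −0.769 ± 0.125 and −0.832 ± 0.145.

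At 1 h, 9 member regions (6.62%) ranked higher in the RAD21 line and 5 (3.68%) lower, beside 5.68% and 6.15% of all regions. The median change was −0.022. It was −0.200 without WT 1 h replicate 2 and 0.129 without WT 1 h replicate 1. ZNF526 was higher by 1.41 ± 0.128, ZNF701 by 1.46 ± 0.185 and ZNF136 by 0.936 ± 0.123, and ZNF780A, ZNF561 and ZNF566 were lower, at −0.466 ± 0.111, −0.565 ± 0.145 and −0.427 ± 0.113. The 1 h change differed between the lines at 26 member regions by the interaction term. It was more positive in the RAD21 line at 17 (12.5%) and more negative at 9 (6.62%), beside 11.7% and 11.0% of all regions. With the name form as a term the counts were 16 (11.8%) and 21 (15.4%), beside 17.3% and 14.9% of all regions. The median member difference then turned from 0.064 to −0.061. Without the term, that median was 0.210 when WT 1 h replicate 1 was left out and −0.062 when replicate 2 was.

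For H3K4me1, 60476 regions were called in all 6 lists and 127 covered member promoters. In limma 0 of them ranked higher or lower at 1 h, beside 0.291% and 0.304% of all regions, and 0 at 10 h, beside 0.615% and 0.0231%. An unadjusted p under 0.05 was found at 8 (6.30%) and 4 (3.15%) of them, beside 15.5% and 8.66% of all regions, and the median changes were −0.030 and 0.046. Few H3K4me1 regions passed anywhere, so a change of the size seen in H3K27ac was not shown to be absent.

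The partners through which KRAB zinc finger proteins act were marked throughout. The list held TRIM28, SETDB1 and its cofactor ATF7IP, the heterochromatin proteins CBX1, CBX3 and CBX5, the HUSH complex genes TASOR, MPHOSPH8 and PPHLN1, MORC2, the NuRD subunits CHD3, CHD4, HDAC1 and HDAC2, DNMT1, UHRF1, ATRX and DAXX. All 18 had promoter H3K27ac in 10 lists and H3K4me1 in 6. Of all protein-coding promoters, 58.1% had H3K27ac in all 10 lists and 63.9% had H3K4me1 in all 6. TRIM28, itself on chromosome 19, was at the 84.1st to 98.7th percentile. At 1 h in WT, 7 of the 21 regions at their promoters (33.3%) ranked higher and 4 (19.05%) lower, beside 14.3% and 14.8% of all regions, with a median change of 0.267. At 10 h 0 ranked higher and 3 (14.3%) lower, beside 9.70% and 8.56%. In the RAD21 line at 1 h 4 (19.05%) ranked higher and 1 (4.76%) lower, beside 14.4% and 13.4%. Of all promoter regions, 16.6% ranked higher and 16.7% lower at 1 h in WT. At 10 h those shares were 5.42% and 10.4%, and in the RAD21 line 17.0% and 13.1%.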

How the data were processed

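The authors trimmed the reads (Trim Galore 0.6.6), aligned them to GRCh37 with Bowtie2 2.3.2, filtered low-quality, blacklisted and duplicate reads, and called peaks with MACS2 2.2.7.1, per their methods against an input, as narrow peaks for H3K27ac and as broad ones for H3K4me1. Each deposited list belongs to 1 library and holds a fold (ratio) over background and −log10 p-values and −log10 q-values for each peak, all from the authors' peak caller. These values depend on depth, which is unknown here, so they served for ranks and thresholds inside 1 list. The 10 inputs were not analysed here. Groups came from the labels.

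Start sites were those of basic protein-coding transcripts in a GENCODE annotation mapped to GRCh37, whereas the study used an Ensembl one. TASOR stands for the older symbol FAM208A. Peak ends lay within the GRCh37 chromosome lengths, and sequences were read from the GRCh37 genome with 1-based coordinates. Overlapping peaks of a mark were joined into regions. Rank scores were fitted with limma 3.58.1 (R 4.3.3, moderated with a trend) over the regions called in every list, without covariates, with Benjamini-Hochberg adjustment over all of them. The scripts were tested on simulated data. Protein features were not analysed here.

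Named were 13 members chosen whatever their values, up to 5 gained or lost per contrast and direction, the 3 regions with the smallest p-values per contrast and direction, the 5 highest, the 5 widest and the first 10 unmarked members. Members in small counts, 6 of those lower in both lines, those with only one of the marks, and the cell markers were named after their values were seen. The members and lists were chosen with earlier results of these data known. Alternatives were a −log10 q-value of at least 5, the outermost start only, an overlap of 200 bp, rank by fold, the peak name form as a term, a replicate block and leaving out each library.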

Additional observations from a re-analysis of the deposited data

Results flagged for a closer look

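At 6 named promoter regions the 1 h change of H3K27ac differed between the lines by the interaction term (limma, adjusted p under 0.05), given as the change in the RAD21 line minus the change in WT. It was 1.71 at ZNF526, whose region scored 1.06 and 1.15 and then 0.147 and 0.466 in WT, but 0.78 and 0.83 and then 1.71 and 1.72 in the RAD21 line. It was 1.10 at ZNF784, which fell in WT and scored 0.21 and 0.15 and then 0.07 and 0.10 in the RAD21 line, and 0.923 at ZNF587B. The difference was −1.63 at ZNF446, which went from −0.0787 and 0.417 to 0.394 and 0.551 in WT and from 1.85 and 1.74 to 0.55 and 0.39 in the RAD21 line. It was −0.886 at ZNF497 and −0.902 at ZNF444. WT 1 h replicate 2 has another form of peak name than the lists it is compared with. With that form as a term, each of the 6 kept its direction and an adjusted p under 0.05, at 1.87, 0.880, 0.906, −1.55, −0.833 and −1.14 in the order given. Ranked by fold, each kept its direction and none passed, with adjusted p-values of 0.140 to 0.794.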

How the results depend on the processing

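When peaks had to reach a −log10 q-value of 5, the share of members with H3K27ac was 57.5% at 0 h and 56.1% at 10 h in WT and 60.2% and 60.4% in the RAD21 line at 0 h and 1 h, and that with H3K4me1 was 37.4% without Nutlin-3a, 35.98% after 1 h and 33.1% after 10 h. With the outermost start only, H3K27ac shares were 51.4%, 50.8% and 50.8% in WT and 53.9% and 54.1% in the RAD21 line, and H3K4me1 shares 47.0%, 47.6% and 46.1%. With an overlap of 200 bp they were 57.1%, 56.9% and 55.1% and then 60.4% and 59.8% for H3K27ac, and 51.2% and 50.6% for H3K4me1 at 1 h and 10 h. Leaving out a library gave shares of 57.3% to 60.6% for H3K27ac and 51.6% to 52.8% for H3K4me1.

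Counts of members gained or lost moved by a few genes. For H3K27ac in WT, 1 was gained at 1 h with the q-value or the 200 bp setting, 1 at 10 h with the outermost start or 200 bp, and 2 were lost at 10 h with the q-value or 200 bp. With the q-value, 0 were lost between the lines at 1 h. For H3K4me1, the q-value gave 3 gained and 4 lost at 1 h and 5 lost at 10 h, the outermost start 1 gained and 0 lost at 1 h and 2 lost at 10 h, and 200 bp 2 lost at 10 h. Leaving out a library gave 0 to 1 gained and 0 to 2 lost at 1 h and 0 to 2 lost at 10 h for H3K27ac in WT. Between the lines it gave 4 to 6 gained and 0 to 1 lost at 0 h and 5 to 9 gained at 1 h. For H3K4me1 it gave 1 to 5 gained and 2 to 4 lost at 1 h, and 0 to 2 gained and 1 to 3 lost at 10 h.

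Ranked by fold, 0 member regions were higher or lower for either 1 h contrast, the lines at 1 h and the interaction (limma, where 0 of all regions passed), and unadjusted p-values under 0.05 were found at 36, 15, 22 and 14 member regions (26.5%, 11.0%, 16.2% and 10.3%), beside 19.8%, 14.2%, 17.6% and 13.9% of all regions. By fold, 5 were higher at 10 h in WT and 9 were higher in the RAD21 line at 0 h. With the name form as a term, the 1 h contrast in WT rests on replicate 1 alone at 1 h, assumed to vary like the other groups, and gave 10 higher and 37 lower. The same term gave 2 lower at 10 h, 8 lower between the lines at 0 h, 22 higher between them at 1 h, and 21 lower by the interaction. Those are 1.47%, 5.88%, 16.2% and 15.4% of the member regions, beside 2.34%, 13.2%, 10.1% and 14.9% of all regions. Leaving out a library gave 1 to 10 higher and 17 to 79 lower at 1 h and 0 to 8 higher and 6 to 73 lower at 10 h in WT, and 2 to 13 higher and 16 to 47 lower at 1 h in the RAD21 line. Between the lines it gave 14 to 31 higher and 12 to 48 lower at 0 h, 4 to 22 higher and 0 to 31 lower at 1 h, and 7 to 42 higher and 5 to 20 lower for the interaction. The cause of these shifts was not tested. Of the changes of single named regions under these alternatives, 421 kept direction and side of the threshold, 55 fell short of it, and 0 reversed. Most of these came from leaving out a library, where 315 kept it and 25 fell short. Ranked by fold, 9 kept it and 25 fell short, and with the name form as a term 29 and 5. With the q-value setting or the replicate block, 34 kept it each.

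Replicate numbers did not pair the samples, since deviations of same-numbered lists correlated at −0.050 to 0.045 over 10 pairs for H3K27ac and at 0.00084 to 0.0074 over 3 for H3K4me1. With a replicate block, 5 member regions were higher and 42 lower at 1 h in WT, 2 and 39 at 10 h, 9 and 30 at 1 h in the RAD21 line, 19 and 28 between the lines at 0 h, 9 and 6 at 1 h, and 17 and 10 by the interaction, and 0 for H3K4me1 at either time. Depth is unknown, so how far it limits weak peaks could not be given.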
